A study of Sus scrofa with 9 samples.

Results

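The genes described here are the AP-1 transcription factors and the related stress factor ATF3, taken as a list of 10 symbols (FOS, FOSB, FOSL1, FOSL2, JUN, JUNB, JUND, ATF3, MAFF and BATF) and looked up by symbol among the 25149 genes of the expression table. Of the 10, 6 were listed: FOS, FOSL1, JUNB, ATF3, MAFF and BATF, each at 1 TPM or more in all 9 hearts. TPM are read counts scaled to gene length and to the same total in each heart. The other 4, FOSB, FOSL2, JUN and JUND, had no row under their symbols and were not analysed here. The list was not chosen by a threshold on measured values, but it was drawn up with earlier results of these data known.

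The hearts came from 9 female American Yorkshire pigs of 4 to 6 months in a model of donation after circulatory death (DCD), and all of them went through 15 min of warm ischemia. In Group 1, called NRP + HOPE 24 h (pigs 27, 28 and 30), 60 min of normothermic regional perfusion (NRP), which restarts the circulation inside the donor body, was followed by 24 h of hypothermic oxygenated perfusion (HOPE) at 8 °C. In Group 2, called NRP + SCS 2 h (pigs 24, 25 and 29), 60 min of NRP was followed by 2 h of static cold storage (SCS) at 4 °C. In Group 3, called No NRP + HOPE 2 h (pigs 31, 33 and 34), the heart was procured directly, with 0 min of NRP, and held for 2 h in HOPE at 8 °C. By the paper's methods, the HOPE perfusate contained donor packed red blood cells, while SCS hearts lay submerged in heart solution. Every heart was then reanimated for 2 h by normothermic machine perfusion (NMP) with donor blood, beating without load, and RNA was taken from the apex at its end. The controls therefore carry the same circulatory death, storage in the cold and blood reperfusion as the other groups, and no heart without DCD was analysed here. Each group holds 3 hearts, each from a different animal, so the spread between replicates is a spread between animals.

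AP-1 is a family of dimers built from bZIP proteins. A FOS family protein cannot pair with itself and binds DNA with a JUN family partner, and the dimer switches on genes that carry the AP-1 recognition element in their promoters or enhancers. FOS and JUNB are immediate early genes, copied within minutes of growth factor, calcium or stress kinase signalling with no need for new protein, whereas FOSL1 (FRA-1) is itself an AP-1 target and usually appears later. ATF3 belongs to the ATF/CREB branch, is induced by ischemia, reperfusion and other stresses, and often acts as a repressor, also of inflammatory genes. MAFF is a small Maf protein that has no activation domain of its own and pairs with CNC factors such as NFE2L2. BATF pairs with JUN proteins at sites shared with interferon regulatory factors and is best known from lymphocytes and dendritic cells.

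In the expression table the genes carry the identifiers ENSSSCG00000002383 (FOS), ENSSSCG00000012967 (FOSL1), ENSSSCG00000013735 (JUNB), ENSSSCG00000015595 (ATF3), ENSSSCG00000030165 (MAFF) and ENSSSCG00000030582 (BATF). The reference list of gene names pairs BATF with another identifier, so the BATF values rest on the symbol given in the table.

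As to the samples, the labels call the cells cardiomyocytes, but the RNA came from whole biopsies. The 7 listed of 12 cardiomyocyte markers summed to between 23043 and 43841 TPM per heart. Endothelial markers (7 of 9 listed) summed to between 287 and 649 TPM and fibroblast markers (6 of 8 listed) to between 692 and 1164 TPM, so these cells were sampled too. In bulk tissue, fewer cells of a type cannot be told apart from less RNA per cell. The 13 mitochondrially encoded protein genes took between 38.2% (pig 30) and 55.3% (pig 27) of all TPM. Sequencing depth cannot be read from TPM, so the precision of a value is known only from how far the 3 hearts of its group lie apart.

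JUNB was the most abundant of the 6 transcripts and BATF the least. Averaged over the 9 hearts, JUNB stood at 345 TPM, FOS at 211 TPM, MAFF at 200.2 TPM, ATF3 at 111 TPM, FOSL1 at 44.7 TPM and BATF at 6.08 TPM. Among the 11782 genes that were high enough to be tested, the mean level of JUNB was above 98.3% of genes, that of FOS above 97.2% and that of BATF above 47.0%. JUNB exceeded FOS in 8 of 9 hearts, with ratios from 0.736 to 4.14, and pig 34 was the exception. FOS and MAFF, neighbours in this order, could not be separated, since FOS was the higher in 5 of 9 hearts and the ratio ran from 0.398 to 2.44. MAFF exceeded ATF3 in 8 of 9 hearts and ATF3 exceeded FOSL1 in 8 of 9. FOSL1 exceeded BATF in 9 of 9 hearts, by 3.08 to 22.7 times.

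**Figure D1:**
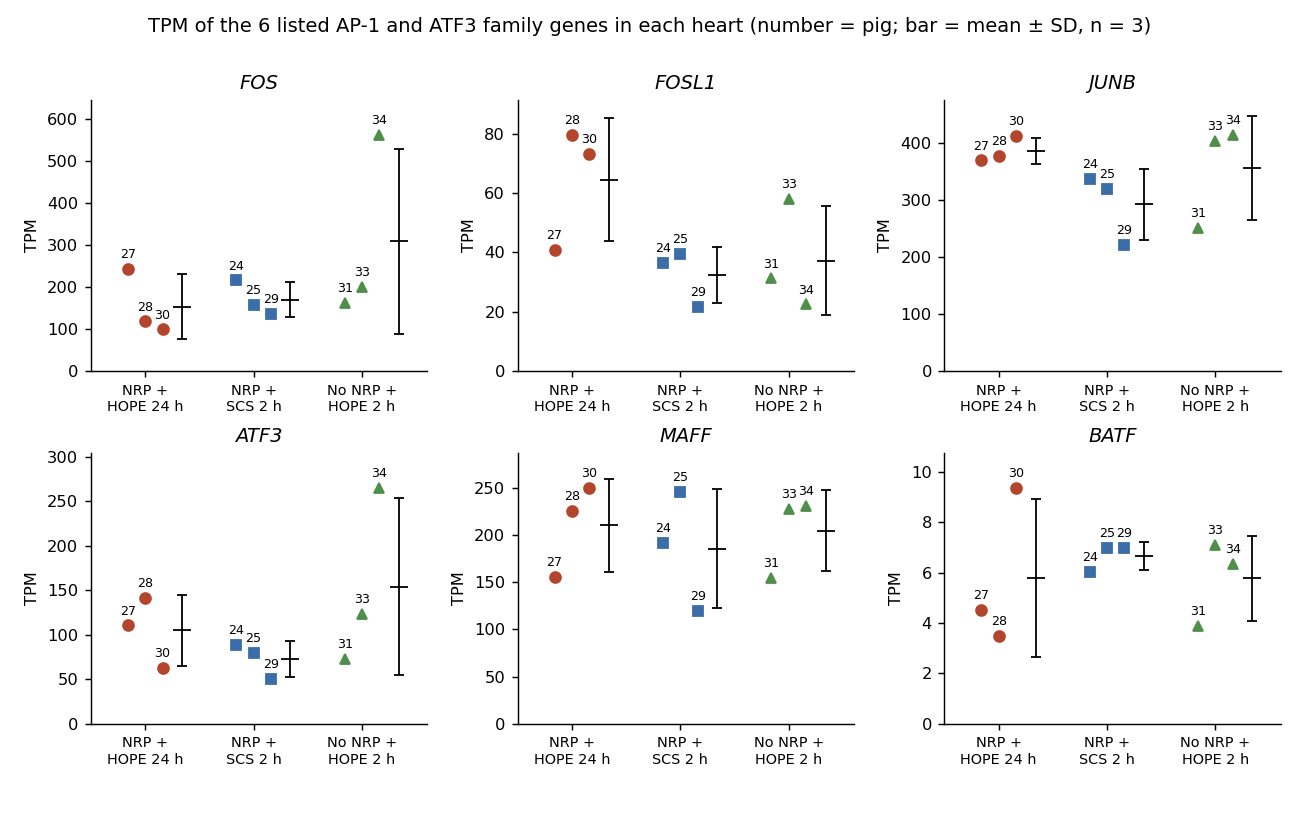
TPM of each of the 6 genes in each heart, on linear axes that start at 0, with points numbered by pig, 3 hearts a group, and black bars for the mean ± SD of the group. FOS and ATF3 are highest in pig 34 (562 and 265 TPM), and the 3 NRP + HOPE 24 h hearts lie above the 3 NRP + SCS 2 h hearts for FOSL1 and JUNB.

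The members differed in how steady they were. JUNB varied least, 1.87-fold from the lowest to the highest heart, and its SD within groups (0.30 on the log2 scale) exceeded that of 19.5% of all genes tested. FOS varied 5.65-fold and ATF3 5.27-fold, with SDs within groups of 0.70 and 0.68, above 88.9% and 87.8% of genes. FOSL1 varied 3.69-fold, BATF 2.67-fold and MAFF 2.08-fold.

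FOS, the founding member of the family, was measured at 243, 119 and 99.6 TPM in the NRP + HOPE 24 h hearts (pigs 27, 28 and 30). It stood at 216, 158 and 136 TPM in the NRP + SCS 2 h hearts (pigs 24, 25 and 29), and at 164, 201 and 562 TPM in the No NRP + HOPE 2 h hearts (pigs 31, 33 and 34). The single value in pig 34 was 2.32 times the next highest heart, and without it all 3 groups overlapped between 99.6 and 243 TPM. Group means were 154 ± 77.7, 170.2 ± 41.2 and 309 ± 220.2 TPM (SD, n = 3).

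FOSL1, the FOS family member that accumulates late after stimulation, was at 41.0, 79.5 and 73.1 TPM with NRP + HOPE 24 h, at 36.4, 39.4 and 21.5 TPM with NRP + SCS 2 h, and at 31.3, 57.9 and 22.5 TPM with No NRP + HOPE 2 h. Every NRP + HOPE 24 h heart was above every NRP + SCS 2 h heart, although the lowest of the former (pig 27) and the highest of the latter (pig 25) were 41.0 and 39.4 TPM. Group means were 64.5 ± 20.7, 32.4 ± 9.57 and 37.2 ± 18.5 TPM (SD, n = 3). Pig 34, with the most FOS, had the second lowest FOSL1.

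JUNB, the only listed JUN family partner, was at 369.7, 377 and 412 TPM in the NRP + HOPE 24 h hearts. The NRP + SCS 2 h hearts had 337, 319 and 222 TPM, and the No NRP + HOPE 2 h hearts 251, 404 and 414 TPM. Again the first 2 of these groups did not overlap, while the third spanned most of the range. The means were 386 ± 22.5, 292 ± 62.1 and 356 ± 91.0 TPM (SD, n = 3).

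ATF3 stood at 111, 142 and 62.8 TPM with NRP + HOPE 24 h, at 88.9, 79.7 and 50.3 TPM with NRP + SCS 2 h, and at 73.2, 123 and 265 TPM with No NRP + HOPE 2 h. All 3 groups overlapped. The highest heart, pig 34, was the same as for FOS and held 1.87 times the next one. The means were 105 ± 39.7, 73.0 ± 20.2 and 154 ± 99.3 TPM (SD, n = 3).

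MAFF was at 155, 226 and 250.0 TPM with NRP + HOPE 24 h, at 192, 246 and 120.0 TPM with NRP + SCS 2 h, and at 155, 228 and 231 TPM with No NRP + HOPE 2 h. Each group held a low heart and a high one, and all 3 overlapped. BATF was at 4.51, 3.51 and 9.37 TPM, at 6.03, 6.98 and 6.98 TPM, and at 3.88, 7.11 and 6.35 TPM in the same order of hearts. Both the lowest and the highest BATF value belonged to the NRP + HOPE 24 h group. Lymphocyte markers (8 of 10 listed) summed to between 8.09 and 29.2 TPM in that group, to between 11.9 and 20.6 TPM with NRP + SCS 2 h and to between 13.2 and 31.1 TPM with No NRP + HOPE 2 h. The sum and BATF were highest in the same heart (pig 30) with NRP + HOPE 24 h but not with No NRP + HOPE 2 h, where the sum was highest in pig 34 and BATF in pig 33. The B cell marker MS4A1 did not exceed 0.565 TPM in any heart. The part of these cells in the BATF values was not tested.

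Summed over the 6 genes, the hearts held 924, 946 and 907 TPM with NRP + HOPE 24 h, 876, 849 and 557 TPM with NRP + SCS 2 h, and 678, 1021 and 1500.0 TPM with No NRP + HOPE 2 h. JUNB made up 37.1% to 45.4% of this sum in 8 hearts and 27.6% in pig 34, where FOS took 37.5% and ATF3 17.6%. The balance between the 2 FOS family members ran from 0.040 FOSL1 transcripts per FOS transcript in pig 34 to 0.734 in pig 30. In the NRP + HOPE 24 h group it was 0.169, 0.671 and 0.734 (pigs 27, 28 and 30), so 2 of the 3 hearts stood above all others and pig 27 did not. The other hearts lay at 0.168, 0.249 and 0.158 (pigs 24, 25 and 29) and at 0.191, 0.288 and 0.040 (pigs 31, 33 and 34). This ratio was picked after the values were seen and was not tested.

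**Figure D2:**
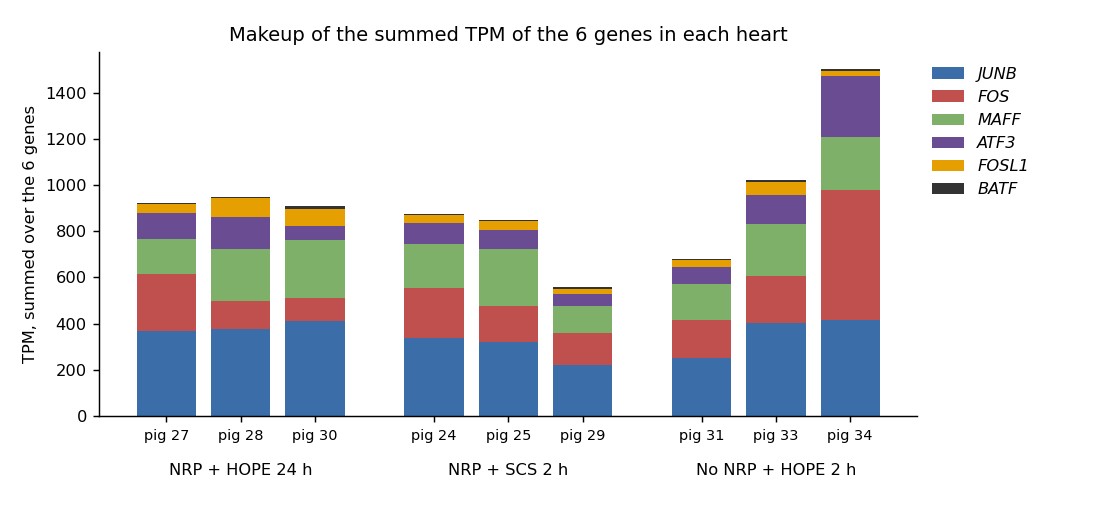
TPM of the 6 genes stacked for each heart, in 3 groups of 3 hearts, on a linear axis from 0. The bars run from 557 TPM in pig 29 to 1500.0 TPM in pig 34, the heart in which FOS and ATF3 take the most room, and FOSL1 is thickest in pigs 28 and 30.

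The first comparison set Group 1 (NRP + HOPE 24 h) against Group 2 (NRP + SCS 2 h), which asks what long HOPE after NRP does relative to short static cold storage. Storage method, duration and temperature changed together, so their parts cannot be told apart. FOSL1 was 1.95 times higher with NRP + HOPE 24 h (log2 fold change 0.96, SE 0.39, 95% interval 0.13 to 1.79) and higher in 9 of 9 pairs of hearts across the groups. Its unadjusted p was 0.0264, and after Benjamini-Hochberg adjustment over all 11782 genes in limma it was 0.943. JUNB was 1.34 times higher and also higher in 9 of 9 pairs, with an interval from -0.15 to 0.99 and an adjusted p in limma of 0.993. Without pig 29 the log2 fold change of JUNB went from 0.42 to 0.23. ATF3 (log2 fold change 0.48, SE 0.43) and MAFF (0.21, SE 0.31) had higher means, FOS (-0.23, SE 0.44) and BATF (-0.27, SE 0.36) lower ones. That of ATF3 was 0.23 without pig 28 and 0.81 without pig 30, and that of BATF was -0.02 without pig 28 and -0.62 without pig 30. With limma array weights the log2 fold change was 0.74 for ATF3 (unadjusted p 0.0457, adjusted p 0.314) and -0.59 for BATF (unadjusted p 0.0484, adjusted p 0.32), where 1812 of all genes passed 0.05 in place of 585. The intervals of these 4 genes included 0, the widest of them reaching from -1.17 to 0.71 for FOS. The sign turned for FOS without pig 30 (0.0226) and for MAFF without pig 29 (-0.0718).

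In that comparison 0 of 6 members passed an adjusted p of 0.05 with an absolute log2 fold change over 1 in limma, where 3 of all tested genes did (0.0255%). At an unadjusted p under 0.05 it was 1 of 6 (FOSL1) beside 4.97% of all genes, and groups that did not overlap were seen for 2 of 6 (FOSL1 and JUNB) beside 9.82% of all genes. With 6 members, a single gene decides such shares. The median log2 fold change of the 6 was 0.32 and that of all tested genes -0.12, a median that median-of-ratios scaling brought to 0.000305. With a heart left out, the log2 fold change of FOSL1 ran from 0.70 (without pig 29) to 1.25 (without pig 27), and its unadjusted p was above 0.05 when pig 28, pig 30 or pig 29 was missing. Erythroid markers (3 of 7 listed, none at 0 in every heart) summed to 73.9, 343 and 424.8 TPM in pigs 27, 28 and 30 of Group 1, where FOSL1 was at 41.0, 79.5 and 73.1 TPM, and to between 71.4 and 133 TPM in Group 2. Fibroblast markers (6 of 8 listed) ran from 777 to 1141 TPM and from 692 to 1015 TPM, and endothelial markers (7 of 9 listed) from 287 to 601 TPM and from 555 to 617 TPM. All 3 lists overlapped between the groups, and their part in the FOSL1 values was not tested.

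**Figure D3:**
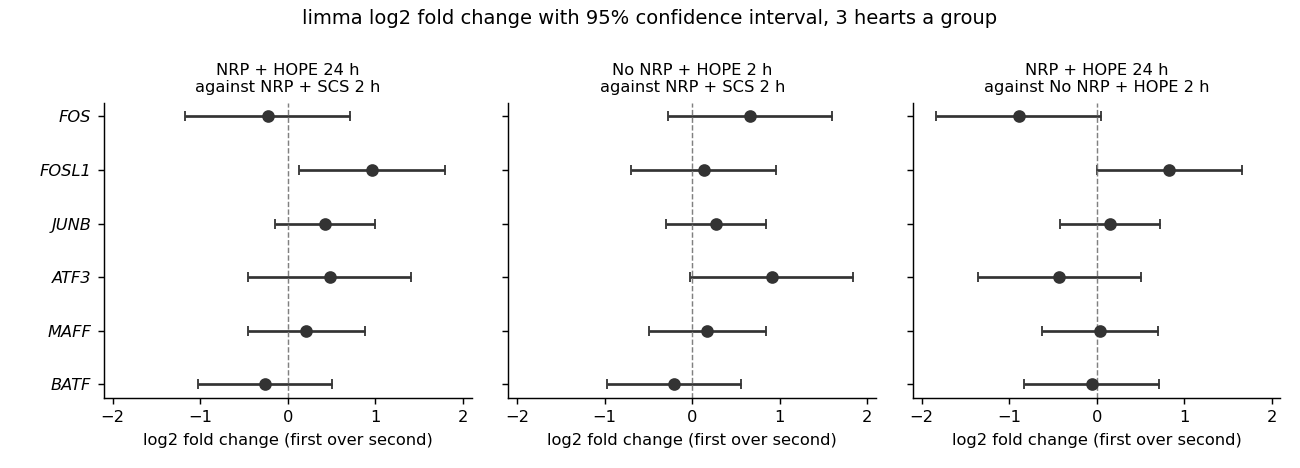
log2 fold change of each gene (points) with its 95% confidence interval (bars) from limma on log2(TPM + 1), for the 3 comparisons of groups of 3 hearts, with a dashed line at 0. Only the interval of FOSL1 in Group 1 against Group 2 lies wholly on 1 side of 0, from 0.13 to 1.79.

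Next, Group 3 (No NRP + HOPE 2 h) was set against Group 2, the comparison that addresses the absence of NRP. Here NRP, storage method and temperature changed together and cannot be told apart, and the NRP + SCS 2 h hearts are the same 3 as before. ATF3 was 1.88 times higher without NRP (log2 fold change 0.91, SE 0.43, interval -0.03 to 1.84), higher in 7 of 9 pairs of hearts, with an unadjusted p of 0.0557 and an adjusted p in limma of 0.702. FOS was 1.58 times higher, also in 7 of 9 pairs (log2 fold change 0.66, SE 0.44, interval -0.28 to 1.60, adjusted p in limma 0.821). Both depended on single hearts. Without pig 34 the log2 fold change of ATF3 was 0.42 and that of FOS 0.12, and without pig 31 they were 1.34 and 1.01. Limma array weights gave ATF3 a log2 fold change of 0.84 (unadjusted p 0.0191, adjusted p 0.227), FOSL1 one of 0.45 and BATF one of -0.04. The log2 fold change of JUNB, 0.27, was 0.08 without pig 29 and 0.51 without pig 31. FOSL1 (log2 fold change 0.13), JUNB, MAFF (0.17) and BATF (-0.21) had intervals that included 0, from -0.70 to 0.96 for FOSL1. The sign turned for FOSL1 without pig 33 (-0.24), for MAFF without pig 29 (-0.11) and for BATF without pig 31 (0.0129).

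By limma, 0 of 6 members passed the adjusted threshold there, beside 6 of all tested genes (0.0509%), and 0 of 6 passed an unadjusted p of 0.05, beside 7.22%. Groups that did not overlap were found for 0 of 6, beside 14.7% of all genes. The median log2 fold change of the members was 0.22 against -0.07 for all genes tested. In pig 34, the heart with the most FOS and ATF3, macrophage and monocyte markers (7 of 10 listed, none at 0) also summed highest, to 254 TPM. These markers ran from 67.6 to 150.3 TPM with NRP + HOPE 24 h, from 84.1 to 198 TPM with NRP + SCS 2 h and from 120 to 254 TPM with No NRP + HOPE 2 h. Erythroid markers (3 of 7 listed, nearly all of it HBB) summed to between 222 and 373 TPM with No NRP + HOPE 2 h and to between 71.4 and 133 TPM with NRP + SCS 2 h, and fibroblast markers to between 1037 and 1164 TPM and between 692 and 1015 TPM, so neither list overlapped between these groups. In the NRP + HOPE 24 h hearts the erythroid sum reached from 73.9 to 424.8 TPM and so overlapped both ranges. The HOPE perfusate held donor red cells. The part of the perfusate and of the cell types above in the result was not tested. Neutrophil markers were low throughout (4 of 8 listed, 0.708 to 16.1 TPM, with CSF3R listed at 0 in each heart).

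The remaining pairing, Group 1 against Group 3, used hearts of both earlier comparisons. HOPE was common to the 2 groups, while NRP and the duration of storage differed and cannot be told apart. FOSL1 was 1.78 times higher after 24 h (log2 fold change 0.83, SE 0.39) and higher in 8 of 9 pairs. Its unadjusted p was 0.05004 and its adjusted p in limma 0.829. The log2 fold change of FOSL1 was 0.53 without pig 34 and 1.20 without pig 33. FOS lay on the other side, at 0.539 of its level in No NRP + HOPE 2 h (log2 fold change -0.89, SE 0.44, interval -1.83 to 0.05) and higher in 2 of 9 pairs, with an adjusted p in limma of 0.846. Without pig 34 its log2 fold change shrank to -0.35, and without pig 27 it was -1.28. ATF3 (-0.43, SE 0.43), JUNB (0.15), MAFF (0.04) and BATF (-0.06) were closer to 0, and the ATF3 value became 0.06 without pig 34. With limma array weights ATF3 was at -0.09 and BATF at -0.54 (unadjusted p 0.0768), so BATF was then no longer close to 0, and FOSL1 was at 0.59. Smooth muscle and pericyte markers (6 of 7 listed, with MYH11 listed at 0 in each heart) summed to between 227 and 419.6 TPM in Group 1 and to between 434 and 492 TPM in Group 3, and their part was not tested.

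Here too limma passed 0 of 6 members at the adjusted threshold (0.0509% of all genes), 0 of 6 at an unadjusted p of 0.05 (6.01%), and groups that did not overlap were seen for 0 of 6 (7.48%). The members' median log2 fold change was -0.01 and that of all genes -0.03.

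Whether the members moved together from heart to heart was examined over the 9 hearts for 15 pairs of genes. JUNB and MAFF had the highest Pearson r of log2(TPM + 1), 0.80 (exact permutation p = 0.013, adjusted over the 15 pairs 0.171), with a Spearman rho of 0.70 (exact permutation p = 0.0433, adjusted 0.498). FOS and ATF3 followed with r = 0.76 (exact permutation p = 0.0228, adjusted 0.171) and rho = 0.55 (exact permutation p = 0.133, adjusted 0.498). Centred on the group means, these r were 0.82 and 0.79. With 1 heart left out, r of JUNB and MAFF ran from 0.59 (without pig 29) to 0.91 (without pig 27), and r of FOS and ATF3 from 0.37 (without pig 34) to 0.94 (without pig 28). Without the 2 hearts farthest from the median of the first gene, a removal that itself narrows the range, r was 0.21 for JUNB and MAFF (pigs 29 and 31) and 0.19 for FOS and ATF3 (pigs 34 and 30). No pair passed an adjusted p of 0.05, although 2 of the 15 had an unadjusted p under it.

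FOS and FOSL1, both of the FOS family, had a negative correlation across hearts, with r = -0.57 (exact permutation p = 0.107, adjusted 0.267), rho = -0.42 (exact permutation p = 0.27, adjusted 0.578) and -0.56 within groups. This r was -0.36 without pig 34, -0.45 without pig 30, -0.81 without pig 29 and -0.086 without both pig 34 and pig 30, the hearts farthest from the median of FOS. JUNB had r of 0.66 with ATF3, 0.57 with FOSL1 and 0.29 with FOS, with exact permutation p-values adjusted to 0.267, 0.267 and 0.727. With a heart left out, r of JUNB ran from 0.495 (without pig 29) to 0.866 (without pig 30) with ATF3, from 0.355 (without pig 29) to 0.885 (without pig 34) with FOSL1 and from 0.0267 (without pig 34) to 0.53 (without pig 30) with FOS. BATF lay between -0.27 (with ATF3) and 0.30 (with MAFF), and these values depended on scaling. With MAFF its r was -0.39 after rescaling by the median of ratios, -0.26 after quantile normalisation and -0.19 with mitochondrially encoded genes left out, and with ATF3 it was -0.56, -0.56 and -0.51.

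**Figure D4:**
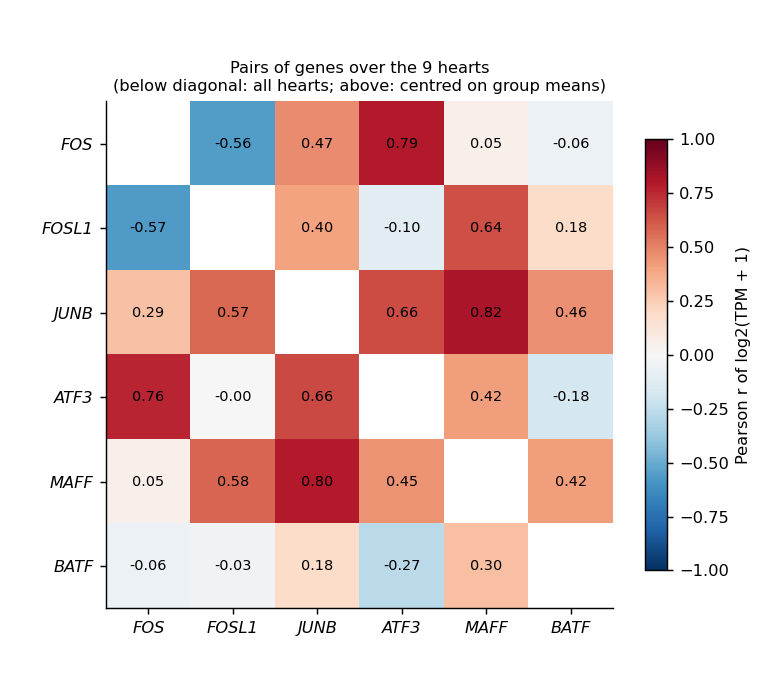
Pearson r of log2(TPM + 1) for each pair of the 6 genes over 9 hearts, below the diagonal as measured and above it after each group of 3 hearts was centred on its mean, coloured from -1 (blue) to 1 (red). JUNB with MAFF (0.80) and FOS with ATF3 (0.76) are the highest below the diagonal, and FOS with FOSL1 (-0.57) is the lowest.

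Across the table, the named genes whose log2(TPM + 1) followed ATF3 most closely over the 9 hearts were BATF2 (r = 0.95), IRF1 (0.94), BTG2 (0.94), RPS6KA5 (0.92) and IFIT2 (0.89). IRF1 is an interferon-induced transcription factor, and BATF2 and IFIT2 are known as interferon-stimulated genes. All 5 were highest in pig 34 and lowest in pig 29, as ATF3 was. BATF2 ran from 3.98 to 48.1 TPM, IRF1 from 106 to 263 TPM and IFIT2 from 22.2 to 188 TPM. Closest to FOS were LONRF1 (r = 0.92), WT1 (0.91), ZBTB16 (0.89), NCKAP5L (0.89) and CDK3 (0.87), and these too peaked in pig 34. The mean of the 6 members was followed by NFIL3 (r = 0.95), another bZIP factor, and by KCTD12 (0.94), ABHD12B (0.94), CYP51A1 (0.94) and CD274 (0.93). FOSL1 had other companions, named after the values were seen: PLAT (r = 0.96), the tissue plasminogen activator, TXNRD1 (0.96), PKIG (0.96), PLEK (0.95) and CCL2 (0.94). These r were the highest of 11782 genes and describe 9 hearts that share 1 normalisation, so they carry no p.

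Genes around AP-1 were read from 4 further lists of signalling inputs, bZIP relatives, targets and other immediate early genes. Of 34 inputs (stress and growth kinases, their ligands and the serum response factors), 26 were listed and 25 tested. At an unadjusted p under 0.05, 1 was higher and 0 lower in Group 1 against Group 2, 1 higher and 1 lower in Group 3 against Group 2, and 1 higher and 1 lower in Group 1 against Group 3. The 1 higher in Group 3 against Group 2 and the 1 lower in Group 1 against Group 3 were both MAP2K6. It passed the filter of 1 TPM in 3 hearts only through the No NRP + HOPE 2 h hearts. Passing in this way favours a gene that is high there, so these 2 calls are no result. HBEGF, an epidermal growth factor receptor ligand that is shed from the cell surface, was at 118 ± 57.3 TPM with NRP + HOPE 24 h, 39.3 ± 7.12 TPM with NRP + SCS 2 h and 37.2 ± 9.29 TPM with No NRP + HOPE 2 h (SD, n = 3). Its log2 fold changes were 1.43 (SE 0.38, adjusted p in limma 0.419) and 1.52 (SE 0.38, adjusted p in limma 0.3) against these groups, neither of which its hearts overlapped. These counts stand beside 4.97%, 7.22% and 6.01% of all genes in the same order. MAP2K6, the kinase that activates p38, was at 3.29 ± 2.78 TPM without NRP against 0.589 ± 0.531 and 0.518 ± 0.284 TPM in the other groups. Its No NRP + HOPE 2 h hearts were at 1.66, 1.71 and 6.49 TPM, with pig 34 far above the others, and of the other 6 hearts only pig 29 reached 1 TPM, at 1.19 TPM. The median log2 fold change of the 25 was -0.07, -0.06 and 0.03 in the 3 comparisons, beside -0.12, -0.07 and -0.03 over all genes. RPS6KA3, a kinase downstream of ERK, was at 14.1 ± 4.59 TPM with No NRP + HOPE 2 h against 23.1 ± 3.62 TPM with NRP + SCS 2 h (log2 fold change -0.71, adjusted p in limma 0.687). MAP3K8 was at 29.3 ± 4.15 TPM with NRP + HOPE 24 h and 20.5 ± 4.08 TPM with NRP + SCS 2 h, and MAP3K4, another kinase upstream of JNK and p38, at 0.837 ± 0.460 and 1.59 ± 0.283 TPM (log2 fold changes 0.50 and -0.52, both with an adjusted p in limma of 0.993). AREG, a further ligand of the epidermal growth factor receptor, was at 8.52 ± 3.80 TPM with No NRP + HOPE 2 h and 4.99 ± 0.961 TPM with NRP + SCS 2 h (log2 fold change 0.61, adjusted p in limma 0.821).

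Of 25 bZIP relatives, 16 were listed and 15 tested, with median log2 fold changes of 0.14, -0.04 and 0.03 in the 3 comparisons. In Group 1 against Group 2, 0 of 15 had an unadjusted p under 0.05 in limma, and in Group 3 against Group 2 it was 2 of 15 and in Group 1 against Group 3 1 of 15, beside 4.97%, 7.22% and 6.01% of all genes. CREM, which binds cAMP response elements, was at 45.2 ± 7.72 TPM with No NRP + HOPE 2 h and 24.2 ± 3.70 TPM with NRP + SCS 2 h (log2 fold change 0.87, SE 0.30, unadjusted p 0.0112, adjusted p in limma 0.516). CREB5 was at 29.1 ± 8.63 and 15.9 ± 1.58 TPM in the same groups (log2 fold change 0.79, SE 0.36, adjusted p in limma 0.687). For both genes the hearts did not overlap, as for 4 of the 15 relatives in that comparison, beside 14.7% of all genes. BACH2, a repressor that pairs with small Maf proteins, was at 1.79 ± 0.0588 TPM with NRP + HOPE 24 h and 0.698 ± 0.246 TPM with No NRP + HOPE 2 h (adjusted p in limma 0.795), where no heart reached the 1 TPM of the filter. BACH1, its heme-binding relative, was at 12.1 ± 5.39 TPM with NRP + HOPE 24 h and 19.98 ± 0.934 TPM with NRP + SCS 2 h (log2 fold change -0.78, SE 0.39, adjusted p in limma 0.993). NFE2L2, the partner of small Maf proteins in the antioxidant response, was at 62.5 ± 17.2 and 42.1 ± 7.32 TPM in these groups (log2 fold change 0.53, adjusted p in limma 0.993). ATF6, a sensor of stress in the endoplasmic reticulum, was at 10.1 ± 3.08 TPM with NRP + HOPE 24 h and 5.91 ± 2.35 TPM with No NRP + HOPE 2 h (log2 fold change 0.71, adjusted p in limma 0.857).

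The list of known AP-1 targets, secreted proteases, cytokines and other genes with AP-1 elements, had 25 genes, of which 17 were listed and 12 tested. In Group 1 against Group 2, 5 of 12 were higher and 0 lower at an unadjusted p under 0.05, where 4.97% of all genes passed in either direction. The median log2 fold change was 0.77 over the 12 and -0.12 over all genes, and 0 of 12 passed the adjusted threshold in limma. The count was 3 of 12 without pig 28, the heart with the most CXCL8, CCL2 and PTGS2, and all genes at that p went from 585 to 370 without it. The part of the erythroid, fibroblast and endothelial markers given above was not tested here either. PLAU, the urokinase plasminogen activator, was at 121, 263 and 402 TPM with NRP + HOPE 24 h (pigs 27, 28 and 30), at 74.1, 70.9 and 59.0 TPM with NRP + SCS 2 h (pigs 24, 25 and 29) and at 144, 259.6 and 138 TPM with No NRP + HOPE 2 h (pigs 31, 33 and 34). All 6 HOPE hearts were thus above all 3 SCS hearts, with log2 fold changes of 1.77 (SE 0.39, adjusted p in limma 0.206) and 1.34 (SE 0.39, adjusted p in limma 0.414). CXCL8, a neutrophil chemokine, was at 10.8, 74.2 and 22.8 TPM in the NRP + HOPE 24 h hearts, at 3.08, 6.67 and 2.90 TPM in the NRP + SCS 2 h hearts and at 4.47, 19.6 and 5.90 TPM in the No NRP + HOPE 2 h hearts. PTGS2 (cyclooxygenase) was at 30.4, 124 and 32.6 TPM, at 9.19, 14.5 and 10.9 TPM and at 9.58, 37.5 and 4.79 TPM in the same order of hearts. In each group its highest heart was also that of CXCL8, while the lowest heart differed in Group 2 and Group 3. The log2 fold changes of CXCL8 and PTGS2 in Group 1 against Group 2 were 2.48 (SE 0.61) and 2.04 (SE 0.62), with adjusted p in limma of 0.344 and 0.669.

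In Group 1 against Group 3, 3 of 12 targets were higher and 0 lower at an unadjusted p under 0.05 (6.01% of all genes), with a median log2 fold change of 0.74. Leaving out a heart took this count from 1 (without pig 28 or pig 31) to 7 (without pig 27) and 8 (without pig 33), and it was 5 after rescaling by the median of ratios or after quantile normalisation. All genes at that p went from 708 to 1374 and 1349 under these scalings, and to 476, 1023, 980 and 688 without pigs 28, 31, 27 and 33. The 3 genes were PTGS2 (1.94), CCL2 (0.91) and CXCL8 (1.59), which had adjusted p in limma of 0.513, 0.67 and 0.743. In Group 3 against Group 2 it was 1 of 12 (PLAU) beside 7.22% of all genes, with a median of 0.08. That count was higher with array weights, where all genes at that p numbered 1864 in place of 851. VEGFA, the endothelial growth factor, was at 48.3 ± 20.8 TPM with No NRP + HOPE 2 h and 82.2 ± 28.2 TPM with NRP + SCS 2 h, and TGFB1, the profibrotic cytokine, at 84.3 ± 49.4 and 125 ± 3.21 TPM (log2 fold changes -0.80 and -0.75, adjusted p in limma 0.732 and 0.736). Several of these targets also carry NF-κB elements, and the list was written with earlier results of these data known, so its counts are no independent evidence of a direction.

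**Figure D5:**
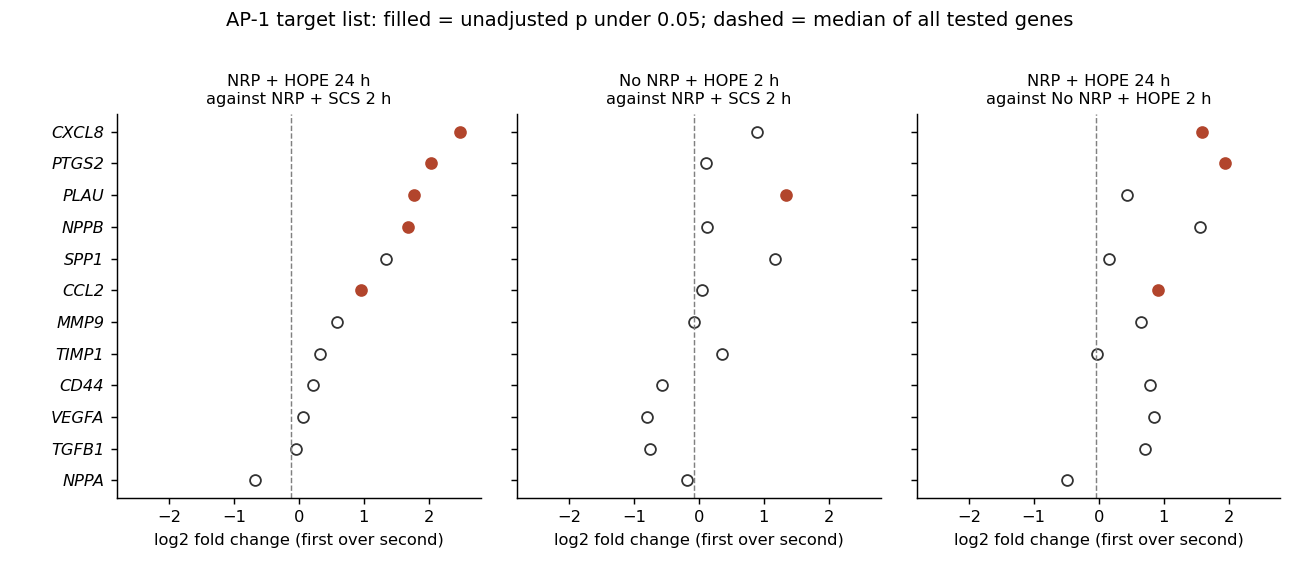
log2 fold change from limma of the 12 tested AP-1 targets in the 3 comparisons of groups of 3 hearts, with filled points for an unadjusted p under 0.05, open points for the others and a dashed line at the median of all tested genes. Filled points number 5, 1 and 3 and all lie to the right of the dashed line.

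Other immediate early genes were mixed. Of 28 written, 19 were listed and 18 tested, and at an unadjusted p under 0.05 it was 1 higher and 1 lower in Group 1 against Group 2, 1 higher and 0 lower in Group 3 against Group 2, and 1 higher and 1 lower in Group 1 against Group 3. The shares of all genes were 4.97%, 7.22% and 6.01%. IER3, an early response gene that modulates cell death, was at 360.3, 709.8 and 596 TPM with NRP + HOPE 24 h, at 181, 236 and 151 TPM with NRP + SCS 2 h and at 136, 209.8 and 139 TPM with No NRP + HOPE 2 h. Its NRP + HOPE 24 h hearts lay above all 6 others, with log2 fold changes of 1.52 (SE 0.30, adjusted p in limma 0.138) and 1.75 (SE 0.30, adjusted p in limma 0.0815). NR4A2, an orphan nuclear receptor, was lower there, at 4.99 ± 0.768 TPM against 13.5 ± 3.96 and 10.9 ± 4.08 TPM (log2 fold changes -1.24 and -0.93, adjusted p in limma 0.477 and 0.7). GADD45B, a regulator of p38 and JNK signalling, was at 593 ± 102 TPM without NRP, 357 ± 55.2 TPM with NRP + SCS 2 h and 422 ± 43.1 TPM with NRP + HOPE 24 h. The median log2 fold change of the 18 was 0.25, 0.15 and -0.02 in the 3 comparisons. The log2 fold change of GADD45B in Group 3 against Group 2 was 0.73 (SE 0.23, unadjusted p 0.00752, adjusted p in limma 0.483). In that comparison KLF4 was at 44.2 ± 12.5 and 31.9 ± 9.04 TPM and DUSP1, a phosphatase that switches off MAP kinases, at 234 ± 23.8 and 184 ± 66.5 TPM (adjusted p in limma 0.821 and 0.837). CCN1, a matricellular protein listed under its older name CYR61, was at 647 ± 237 TPM with NRP + HOPE 24 h and 411 ± 206 TPM with NRP + SCS 2 h (log2 fold change 0.72, adjusted p in limma 0.993).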

How the data were processed

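Bulk RNA sequencing of apex biopsies from 9 pig hearts was used. Per the submitters' processing notes, reads were handled with bcl2fastq 2.17, Trimmomatic 0.36, STAR 2.5.2b, featureCounts of Subread 1.5.2 and DESeq2, and unique exonic reads were counted per gene. The genome build and the gene lengths behind TPM are not given in the sources used here. The deposited values are TPM computed by the authors, which sum to 1000000 per heart and are not counts, so a count model was not fitted here. Of 18 value columns, 9 matched a labelled heart and 9 were not used.

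TPM were tested as log2(TPM + 1), which understates the change of low genes, with limma 3.58.1 in R 4.3.3. A single fit held 1 mean per group over all 9 hearts, with eBayes trend and two-sided p-values, Benjamini-Hochberg adjusted over the 11782 genes that reached 1 TPM in 3 or more hearts. A call required that the adjusted p be below 0.05 and that the log2 fold change exceed 1 in size. Pairs of members were tested by exact permutation over all 362880 pairings of the hearts. Both procedures were run on simulated normal noise with planted effects stronger than those of the members. Effects of the members' size were not simulated.

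Members were matched by symbol. Other lists were matched by symbol or, failing that, by gene ID. The members and all lists were chosen with earlier results of these data known. All members are named, besides the 3 genes of each list with the smallest unadjusted p in each comparison and the 5 genes nearest in pattern to ATF3, FOS and the members' mean. Alternatives covered the pseudocount, the filter, scaling, mitochondrially encoded genes, hearts in the fit, variance moderation, heart weights and each heart left out.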

Additional observations from a re-analysis of the deposited data

How the results depend on the processing

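Each member's log2 fold change was recomputed under 18 alternatives per comparison, and no member reached an adjusted p of 0.05 in limma under any of them (lowest adjusted p 0.221, for FOSL1 in Group 1 against Group 2 with limma array weights). Among 162 values from alternatives that kept every heart, 160 kept their sign. The exceptions were JUNB (-0.00786) and MAFF (-0.0343) in Group 1 against Group 3 with array weights, both close to 0 from the start. The count of members at an unadjusted p under 0.05 in Group 1 against Group 2 was 1 (FOSL1), became 2 when TPM were rescaled by the median of ratios (FOSL1 and JUNB), became 3 when hearts were weighted (FOSL1, ATF3 and BATF), and ranged from 0 to 1 with a heart left out. All genes at that p numbered 585, 1006 with the median of ratios and 1812 with weights, so they rose as well. In Group 3 against Group 2 it was 0, became 1 with array weights (ATF3) and ranged from 0 to 2 with a heart left out (1 without pig 24, 2 without pig 31), while all genes numbered 851, 1864 with weights, 479 without pig 24 and 843 without pig 31. In Group 1 against Group 3 it was 0 and became 1 (FOSL1) when genes needed a mean TPM of at least 5, after quantile normalization, after rescaling by the median of ratios and when mitochondrially encoded genes were dropped, and ranged from 0 to 2 with a heart left out (2 without pig 27 or 33, 1 without pig 29 or 31). All genes numbered 708 there, 411 with the mean TPM filter, 1349 after quantile normalization, 1374 with the median of ratios, 1183 without mitochondrially encoded genes, and 980, 688, 653 and 1023 without pigs 27, 33, 29 and 31. The cause was not tested.

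Leaving out 1 heart turned the sign of 15 of 162 values. The range for Group 1 and Group 2 was -0.62 to 0.0226 for FOS and -0.0718 to 0.44 for MAFF. In Group 3 against Group 2 it was -0.24 to 0.43 for FOSL1, -0.11 to 0.405 for MAFF and -0.35 to 0.0129 for BATF. In Group 1 against Group 3 it was -0.86 to 0.0642 for ATF3, -0.083 to 0.28 for JUNB, -0.15 to 0.24 for MAFF and -0.41 to 0.19 for BATF. Chosen after seeing the data, the count of AP-1 targets higher at an unadjusted p under 0.05 was also recomputed. For Group 1 and Group 2 it was 5 and ranged from 3 to 6 with a heart left out. In Group 3 against Group 2 it was 1, became 4 with weighted hearts, and ranged from 1 to 2. For Group 1 and Group 3 it was 3, became 5 with the median of ratios or quantile normalization, and ranged from 1 to 8. The rise with weights, the median of ratios and quantile normalization went with the rise over all genes given above. The count of correlated pairs at an adjusted p under 0.05 ranged from 0 to 1 with a heart left out, and the pair was FOS with ATF3 without pig 28, JUNB with ATF3 without pig 30, JUNB with MAFF without pig 25 and FOSL1 with JUNB without pig 34. No paired analysis was possible because the 3 groups share no pig numbers. With 3 hearts a group, no difference of a member was told from the spread between animals at an adjusted p of 0.05 in limma. Sequencing depth was unknown.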
